A study of Heliconius melpomene cythera and Heliconius melpomene rosina with 32 samples.

Results

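A set of 100 genes of the pupal wing of the butterfly Heliconius melpomene was examined, whose read share at 70% of pupal development was higher in the anterior hindwing than in the rest of the wing in every animal. The members were chosen by measured values. Of 30720 rows of the count table, 18081 carried an annotated HMEL gene ID, and 7839 of these had a mean of 2 to under 1000 CPM over the 32 libraries, CPM being the count scaled to a common library total. CPM was higher in the anterior hindwing in all 8 animals at 70% in 721 of the 7839 rows (9.20%). Of the 721 rows, 653 did not show this in all 8 animals at 50%, and 618 of those also had a mean anterior hindwing CPM in males under 2 times that in females. The 100 with the highest mean log2 ratio of the wing regions were taken, each ratio being log2 of (anterior hindwing CPM + 1) over (forewing and posterior hindwing CPM + 1) within an animal.

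The animals were captive, untreated pupae of the labelled subspecies H. m. cythera, which has iridescent blue wings, and H. m. rosina, which has matt black wings. Each subspecies had 4 animals at 70% and 4 at 50% of development, and each animal gave 1 library of the anterior hindwing and 1 library of the pooled forewing and posterior hindwing. At 70%, individuals 9 and 11 (male) and 10 and 12 (female) were labelled cythera, and individuals 13 to 16, all male, were labelled rosina. At 50%, individuals 2 and 4 (male) and 1 and 3 (female) were labelled cythera, and 5 and 7 (male) and 6 and 8 (female) rosina. Sex and subspecies were therefore partly confounded at 70%, where both females were cythera.

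In Heliconius males the anterior hindwing bears the androconia, a patch of modified scales that release pheromone, and its scales differ from those of the rest of the wing. A wing scale is the flattened outgrowth of a single cell, which lays down a cuticle of chitin and protein in ridges and cross-ribs and later fills with pigment. Scale cells grow out and build their cuticle during the later part of pupal life. A bulk library cannot tell apart fewer cells of a type and less RNA per cell.

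The rows were named only by assembled loci (MSTRG) and HMEL IDs. None of the row IDs matched the RefSeq gene table at hand (0 of the 100 members), so the members are given by ID, with no gene function and no sequence. The marker genes of the androconial region could not be looked up for the same reason, and the tissue labels were not checked against them here. All 100 members had an assembled locus, and 21 joined 2 or more annotated IDs (up to 4), against 15.6% of the 7839 rows. For these a value is that of the joined rows.

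Libraries held 20151439 to 45570497 counts. In a multidimensional scaling of the libraries, dimension 1 separated the stages (positions are the mean of the 2 libraries of an animal). Individual 13, labelled rosina, lay at -0.79 on dimension 2, within the range of the cythera animals at 70% (-1.11 to -0.73) and apart from the other animals labelled rosina (1.26 to 1.66). Individual 4, labelled cythera at 50%, stood apart on dimension 1 (-3.57, against -2.82 to -2.47 in the other cythera animals). Individual 6, labelled rosina at 50%, stood apart on dimension 2 (0.73, against 1.71 to 2.20 in the other rosina animals at 50%). The study removed 1 rosina individual as mislabelled without giving its number, and individual 13 may be that animal. Subspecies results are given with all labelled animals and, where it changes the call, without individual 13 or 4. Results with each other animal left out are given at the end.

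The members' mean log2 ratio at 70% lay between 0.43 and 1.66 with a median of 0.51, and the fold differences of mean CPM were 1.32 to 3.08 (median 1.48). These values chose the members and carry no test. 3 members had a mean log2 ratio of at least 1 and 55 of at least 0.5. Their mean CPM at 70% was 2.27 to 840.3 in the anterior hindwing, with a median of 27.0. It was 1.36 to 466 in the forewing and posterior hindwing, where the median was 18.1. Most members thus had moderate read shares in both regions and a modest excess in the anterior hindwing. CPM is not divided by gene length, so it does not rank the members by transcript number.

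Values were close on either side of the limit. MSTRG.3196 (HMEL015572g1) and MSTRG.15056 (HMEL021388g1), ranked 99 and 100, had mean log2 ratios of 0.43 and 0.43. MSTRG.893 (HMEL030096g1) and MSTRG.2229 (HMEL003565g1), the next in the ranking, had 0.42 and 0.42.

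**Figure D1:**
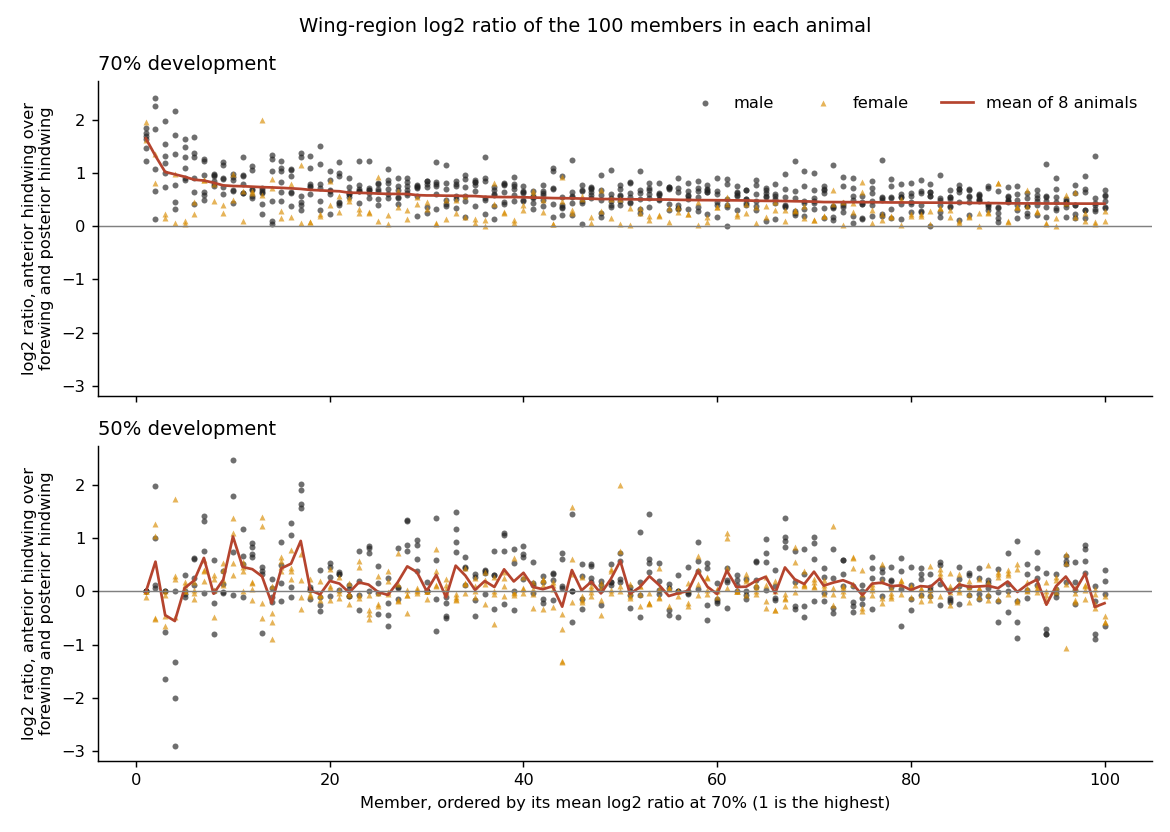
Log2 ratio of anterior hindwing over forewing and posterior hindwing CPM (vertical axis) for each of the 100 members, ordered by rank (horizontal axis), at 70% (top) and 50% development (bottom). Each point is 1 animal (circles, males; triangles, females) and the line joins the means of 8 animals. At 70% every point lies above 0, as the rule requires, and the means run from 1.66 at rank 1 to 0.43 at rank 100. At 50% the means lie between -0.56 and 1.03 on both sides of 0.

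The highest ratio was that of MSTRG.20942 (HMEL010981g1). At 70% it had 36.7, 888, 873, 99.1, 499, 496, 1825.5 and 2005 CPM in the anterior hindwings of individuals 9 to 16, against 9.46, 228, 279.6, 31.3, 147, 210.0, 656 and 618 CPM in the forewing and posterior hindwing of the same animals. Its level thus differed widely between animals of 1 stage, with the lowest values in individuals 9 and 12 and the highest in 15 and 16. Its log2 ratio within an animal stayed at 1.24 to 1.95, with a mean of 1.66 ± 0.22 (SD, n = 8). Values after ± are SDs over the 8 animals of a stage unless stated. It had no count in any anterior hindwing library at 50%, and 3 counts in 1 forewing and posterior hindwing library (0.0761 CPM, individual 6). Against the limit that a count of 0 allows (3 counts per library, a mean of 0.0821 CPM), its mean anterior hindwing CPM was at least 10239.5-fold higher at 70% than at 50%.

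MSTRG.23235 (HMEL008596g1, HMEL034885g1) and MSTRG.14166 (HMEL011908g1) were the other members with a mean log2 ratio of at least 1. MSTRG.23235 had 1.55 CPM at the lowest, 10.4 at the median and 23.9 at the highest in the 8 anterior hindwings at 70%, against 0.600, 3.15 and 10.2 CPM in the forewing and posterior hindwing. Its mean log2 ratio of 1.32 was the most variable of all members (SD 0.80), with 0.14 in individual 14 and 2.41 in individual 16. MSTRG.14166 had 52.9, 172 and 259 CPM (lowest, median and highest) in the anterior hindwing at 70%, against 20.9, 78.1 and 135 CPM in the forewing and posterior hindwing. The wing regions overlapped between animals in both members, and it was within animals that the anterior hindwing was the higher. At 50%, MSTRG.14166 reached no more than 0.441 CPM in the anterior hindwing and 2.12 CPM in the forewing and posterior hindwing, and the anterior hindwing was the higher in 0 of 8 animals.

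The 9 members ranked 4 to 12 had mean log2 ratios of 0.75 to 0.98. MSTRG.6675 (HMEL022073g1) and MSTRG.2889 (HMEL004143g1), with 0.98 ± 0.72 and 0.93 ± 0.59 (SD, n = 8), differed much between animals. MSTRG.7536 (HMEL009325g1, HMEL009326g1) and MSTRG.20458 (HMEL034149g1), with 0.82 ± 0.16 and 0.75 ± 0.23, differed little. The others were MSTRG.7915 (HMEL037545g1) at 0.88, MSTRG.6468 (HMEL037068g1) at 0.86, MSTRG.8564 (HMEL037812g1) at 0.77, MSTRG.3151 (HMEL021694g1, HMEL021694g2) at 0.76 and MSTRG.6314 (HMEL010600g1) at 0.75. Over all 100 members the SD between animals ranged over 0.11 to 0.80 with a median of 0.27. The most even was MSTRG.7595 (HMEL008442g1), singled out after its values were seen, whose log2 ratio lay between 0.33 and 0.66 in all 8 animals at 141 ± 26.0 CPM in the anterior hindwing and 96.8 ± 17.2 CPM in the forewing and posterior hindwing.

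**Figure D2:**
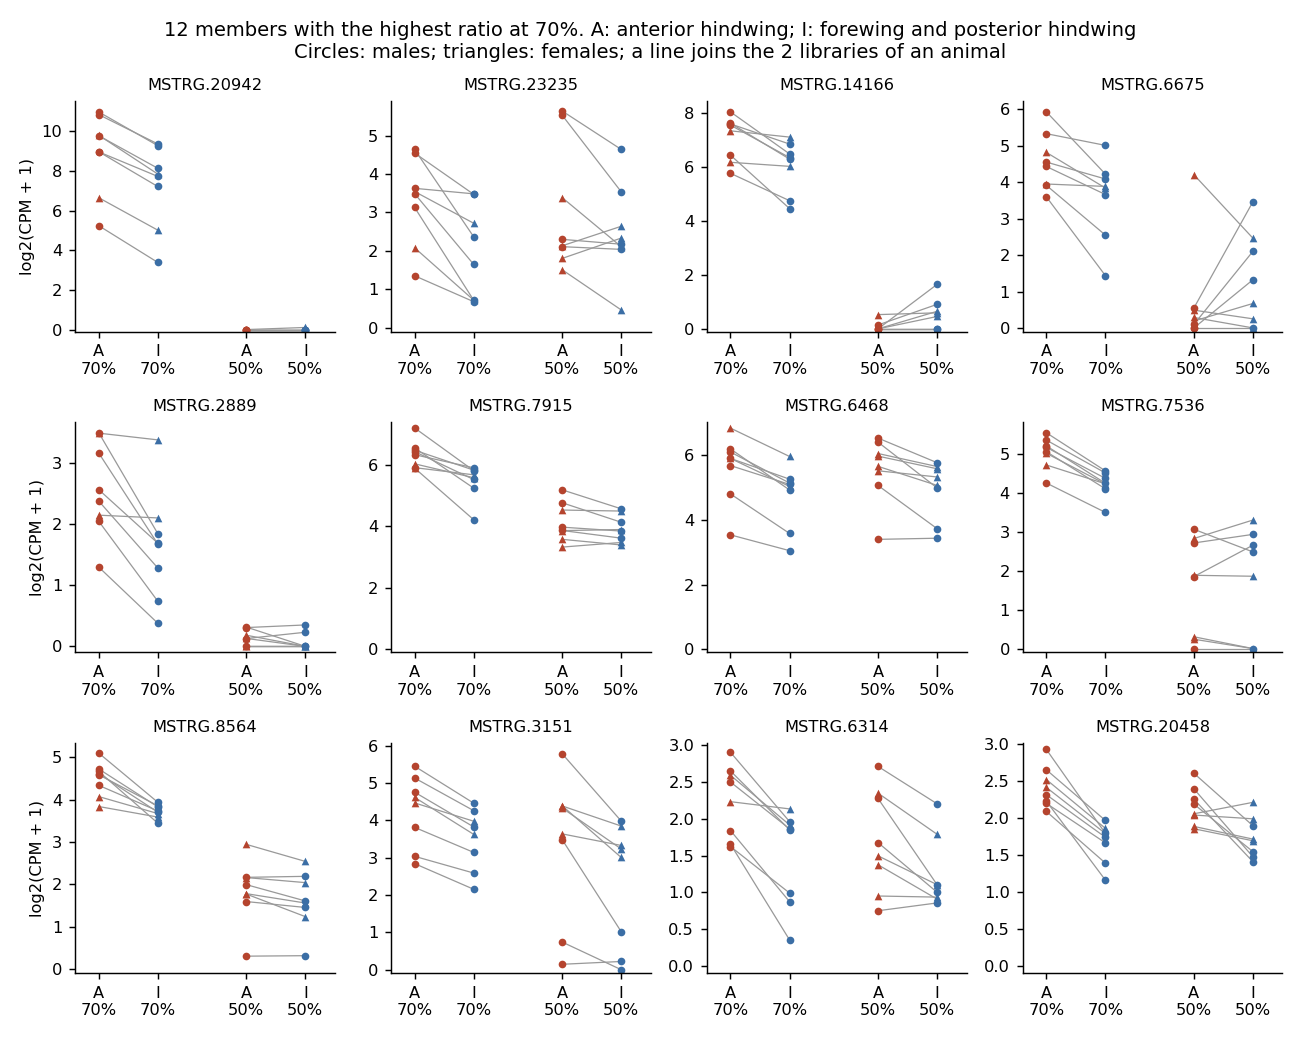
Log2(CPM + 1) (vertical axes) of the 12 members with the highest ratio at 70%, in the anterior hindwing (A, red) and the forewing and posterior hindwing (I, blue) at 70% and 50% development. Each line is 1 animal (circles, males; triangles, females). All lines slope down from A to I at 70%, as the rule requires. At 50%, MSTRG.20942 and MSTRG.14166 lie near 0, whereas MSTRG.6468 and MSTRG.20458 have similar levels at both stages, with means in A of 57.1 and 4.43 CPM at 70%, against 54.6 and 3.53 CPM at 50%.

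The members with the highest anterior hindwing CPM at 70% after MSTRG.20942 were MSTRG.602, MSTRG.6616, MSTRG.22131, MSTRG.6461 and MSTRG.24120. MSTRG.602 (HMEL022617g1) had 526, 718 and 802 CPM (lowest, median and highest) in the anterior hindwing, against 353, 447 and 619 CPM in the forewing and posterior hindwing, a mean log2 ratio of 0.58 ± 0.21. MSTRG.6616 (HMEL037131g1) had 184, 374.5 and 568 CPM in the anterior hindwing, against 128, 262 and 371 CPM in the rest of the wing, at a mean log2 ratio of 0.50. MSTRG.22131 (HMEL016976g1) averaged 349 ± 127 CPM in the anterior hindwing and 235 ± 78.2 CPM in the forewing and posterior hindwing. MSTRG.6461 (HMEL014676g1) averaged 238 ± 43.5 CPM in the anterior hindwing and 175 ± 28.0 CPM in the rest of the wing, and MSTRG.24120 (HMEL003005g1) 233 ± 51.3 CPM in the anterior hindwing and 159 ± 13.9 CPM in the rest of the wing. These abundant members had log2 ratios of 0.44 to 0.58, against 1.66 in the leading member, which is first because the ranking used this ratio.

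The excess depended on how libraries were scaled. Over the 7839 rows the median log2 ratio at 70% was 0.14 with library totals and 0.0083 with TMM factors of edgeR, and 721 rows were higher and 115 lower in the anterior hindwing in all 8 animals with totals, against 233 and 266 with TMM. The 10 most counted rows took 31.7% to 38.3% of the counts of the anterior hindwing libraries at 70% and 35.1% to 41.8% of those of the forewing and posterior hindwing, and their part in this shift was not tested. With TMM the members' mean log2 ratio was 0.28 to 1.51 with a median of 0.38. Of the 100 members, 82 were still higher in the anterior hindwing in all 8 animals with TMM, and each of the others in at least 6. Of the 12 leading members only MSTRG.6675 was not (7 of 8 animals).

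At 50% most members showed little difference between the regions. Their mean log2 ratio was -0.56 to 1.03 with a median of 0.12, against 0.060 over all rows (0.058 against -0.0079 with TMM). The mean ratio was above 0 in 77 members and below 0 in 23. The anterior hindwing was the higher in at least 6 of 8 animals in 38 members, against 30.0% of the rows that were not higher in all 8 (26 members against 15.2% with TMM). As the rule removed rows higher in all 8 animals at 50%, these counts are a description. The 68 rows that were higher in all 8 animals at both stages, which the rule left out, had median log2 ratios of 0.36 at 70% and 0.32 at 50%.

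Some members had ratios at 50% near to or above those at 70%. MSTRG.3151 had a mean log2 ratio of 1.03 ± 0.83 at 50% (higher in 7 of 8 animals), MSTRG.25271 (HMEL012087) 0.95 ± 0.95 (6 of 8), MSTRG.6468 0.63 ± 0.52 (7 of 8) and MSTRG.5642 (HMEL007746g1, HMEL007746g3, HMEL011363g1, HMEL036804g1) 0.57 ± 0.65 (7 of 8). MSTRG.3151, MSTRG.25271 and MSTRG.5642 were the 3 members whose mean ratio, with 1 CPM added to each value, was higher at 50% than at 70%. The added 1 CPM draws the ratios of members under 1 CPM towards 0. MSTRG.22131 was such a member, with means of 0.432 CPM in the anterior hindwing and 0.224 CPM in the rest at 50%. Its mean was thus higher in the anterior hindwing at 50% too. MSTRG.6468 had 9.53, 55.4 and 91.1 CPM (lowest, median and highest) in the anterior hindwing at 50%, against 9.79, 35.8 and 53.4 CPM in the forewing and posterior hindwing. MSTRG.5642 and MSTRG.25271 had low levels at 50%, with means of 0.770 and 2.56 CPM in the anterior hindwing and 0.0845 and 0.495 CPM in the forewing and posterior hindwing. MSTRG.5642 had 238 counts in the 8 anterior hindwing libraries, 116 of them from individual 6, against 27 in the other 8 libraries. At the other end, 4 members had the lowest mean ratios at 50%, MSTRG.6675 at -0.56, MSTRG.14166 at -0.45, MSTRG.3196 at -0.29 and MSTRG.15744 (HMEL014864g1) at -0.29. MSTRG.3196 averaged 51.8 ± 42.1 CPM in the anterior hindwing at 50% and 71.7 ± 62.2 CPM in the forewing and posterior hindwing, and was lower in the anterior hindwing in 6 of 8 animals. MSTRG.15744, with 19.3 ± 10.3 CPM in the anterior hindwing and 26.4 ± 15.3 CPM in the rest of the wing, was split evenly, 4 animals each way.

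The members differed in how their level itself compared between stages. In the anterior hindwing, 38 members were higher in every animal at 70% than in any at 50%, against 10.8% of all rows, 8 were lower in every animal, against 11.9%, and in 54 the stages overlapped. Without overlap, 29 were higher in the forewing and posterior hindwing, against 10.8% of all rows, and 10 were lower, against 14.2%. All 29 were also higher in the anterior hindwing, and 7 members were lower in both regions. The median log2 difference of the stages over members was 0.66 in the anterior hindwing, against -0.011 over all rows, and 0.31 for the forewing and posterior hindwing, against -0.082 (with TMM 0.70 against 0.025, and 0.42 against 0.018). Because the rule used values at 70% and at 50%, no test was made.

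**Figure D3:**
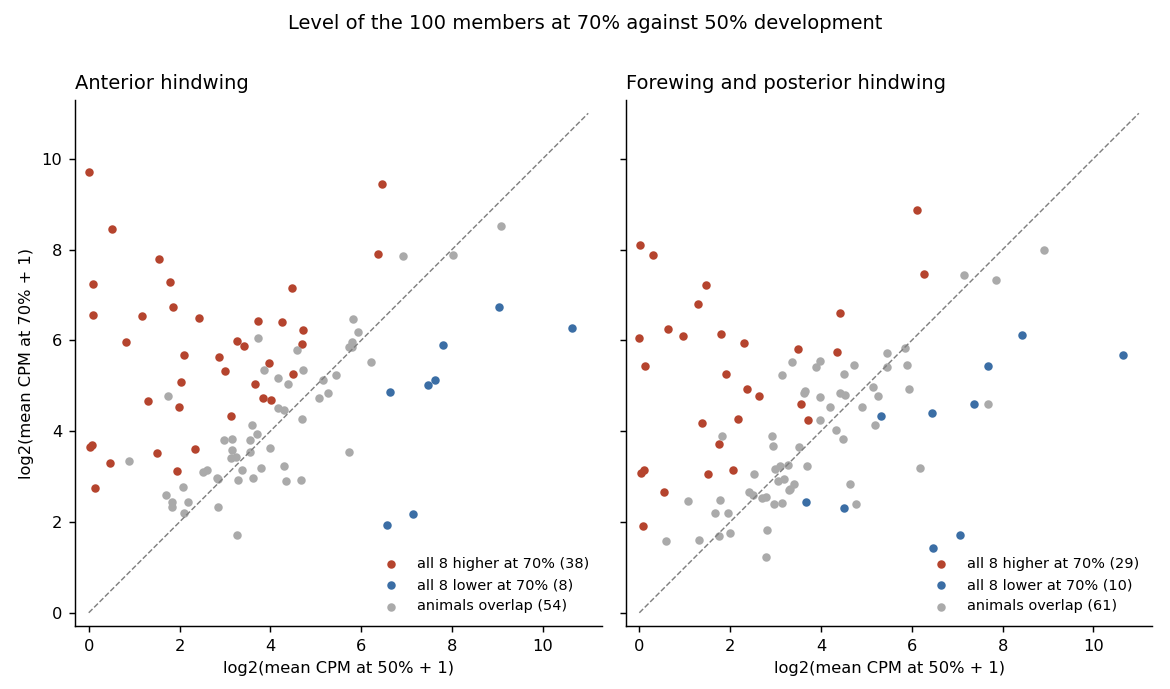
Log2(mean CPM + 1) at 70% (vertical axes) against 50% development (horizontal axes) for the 100 members, in the anterior hindwing (left) and the forewing and posterior hindwing (right), with the line of equality dashed. Red members were higher at 70% without overlap between the 8 animals of each stage (38 and 29), blue ones lower (8 and 10), and grey ones overlapped (54 and 61). The red members on the left edge, under 1 CPM at 50%, include MSTRG.20942, MSTRG.22131, MSTRG.14166 and MSTRG.24492.

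The 38 members that were higher at 70% had mean anterior hindwing CPM of 5.67 to 840.3 at 70% (median 53.7), against 0 to 86.9 at 50% (median 3.69). Those with the largest difference after MSTRG.20942 were MSTRG.22131, MSTRG.14166 and MSTRG.24492 (HMEL022279g1). MSTRG.22131 had 170.3, 327 and 532 CPM (lowest, median and highest) in the anterior hindwing at 70%, against 0, 0.271 and 1.31 CPM at 50%. MSTRG.24492 had 73.9, 91.3 and 118 CPM there at 70%, against 0, 0 and 0.244 CPM at 50%. Its forewing and posterior hindwing libraries averaged 65.5 CPM at 70%, and it had no count in any of the 8 libraries at 50%, so it was at least 734-fold higher at 70% (3 counts per library). These genes thus had low read shares in both regions at 50% and were well covered in both at 70%.

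In all, 10 members had a mean anterior hindwing CPM under 1 at 50%. Besides MSTRG.20942, MSTRG.14166, MSTRG.22131, MSTRG.24492, MSTRG.2889 and MSTRG.5642 these were MSTRG.10915 (HMEL004062g1), MSTRG.13679 (HMEL031434g1), MSTRG.13736 (HMEL014492g1) and MSTRG.19390 (HMEL006591g1), which averaged 8.79, 12.0, 11.5 and 9.18 CPM in the anterior hindwing at 70%, against 0.381, 0.0435, 0.0260 and 0.851 CPM at 50%. The number of counts behind the ratio at 50% differed between them. MSTRG.19390 had 243 counts in the 8 anterior hindwing libraries and 319 in the 8 forewing and posterior hindwing libraries, and MSTRG.10915 had 120 and 125. For MSTRG.22131 they were 126 and 60. The 8 anterior hindwing libraries at 50% held 7 counts of MSTRG.13736 and 11 of MSTRG.13679 in all, and the 8 forewing and posterior hindwing libraries 7 and 24. Few counts also lay behind MSTRG.20942 (0 and 3), MSTRG.24492 (17 and 0) and MSTRG.2889 (28 and 17). A regional difference at 50% could not be judged at this depth for MSTRG.20942, MSTRG.13736, MSTRG.13679, MSTRG.24492 and MSTRG.2889.

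The 8 members that were lower at 70% were MSTRG.6893, MSTRG.3962, MSTRG.6348, MSTRG.6331, MSTRG.9484, MSTRG.21837, MSTRG.22957 and MSTRG.1008. MSTRG.6893 (HMEL022598g1) had 1.22, 3.33 and 6.29 CPM (lowest, median and highest) in the anterior hindwing at 70%, against 72.9, 136 and 217 CPM at 50%. MSTRG.3962 (HMEL004030) had 1.36, 2.59 and 5.05 CPM at 70%, against 59.0, 87.6 and 132 CPM at 50%. MSTRG.6348 (HMEL005352g1) had 41.9, 53.6 and 153 CPM at 70%, against 509.6, 1503 and 2668 CPM at 50%. These members met the rule at a stage where their read share was far below that at 50%. Their mean log2 ratios were 0.45, 0.47 and 0.51 at 70%, against 0.098, 0.23 and 0.077 at 50%. MSTRG.6331 (HMEL005361g1) averaged 33.9 ± 7.89 CPM at 70% and 197 ± 74.5 CPM at 50%. In the other 4, MSTRG.9484 (HMEL005276g1), MSTRG.21837 (HMEL009229g1, HMEL009230g3), MSTRG.22957 (HMEL008056g1) and MSTRG.1008 (HMEL030127g1, HMEL030128g1), the differences of mean log2(CPM + 1), 70% minus 50%, were -2.22, -1.91, -1.76 and -1.65.

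The difference between the regions was present in both sexes, as the rule demanded, but it was smaller in the females. The median log2 ratio over the 100 members was 0.60, 0.60, 0.63, 0.48, 0.64 and 0.71 in males 9, 11, 13, 14, 15 and 16, against 0.28 and 0.26 in females 10 and 12. The sexes did not overlap. Over all 7839 rows the median was 0.10 to 0.29 in the males and 0.000038 and 0.017 in the females, so that the members stood above the rest by 0.37 to 0.48 in males and by 0.25 to 0.28 in females, with library totals as with TMM. Within cythera alone the males stood above all rows by 0.47 and 0.48. The rule ranked the members on the mean of these ratios, with 6 of the 8 animals male. The size of the excess in each sex is thus tied to the rule, and nothing is read from its difference between the sexes. With 2 females, all cythera, and 4 of 6 males labelled rosina, sex and subspecies cannot be told apart over all animals, and this comparison is a description made after the values were seen.

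**Figure D4:**
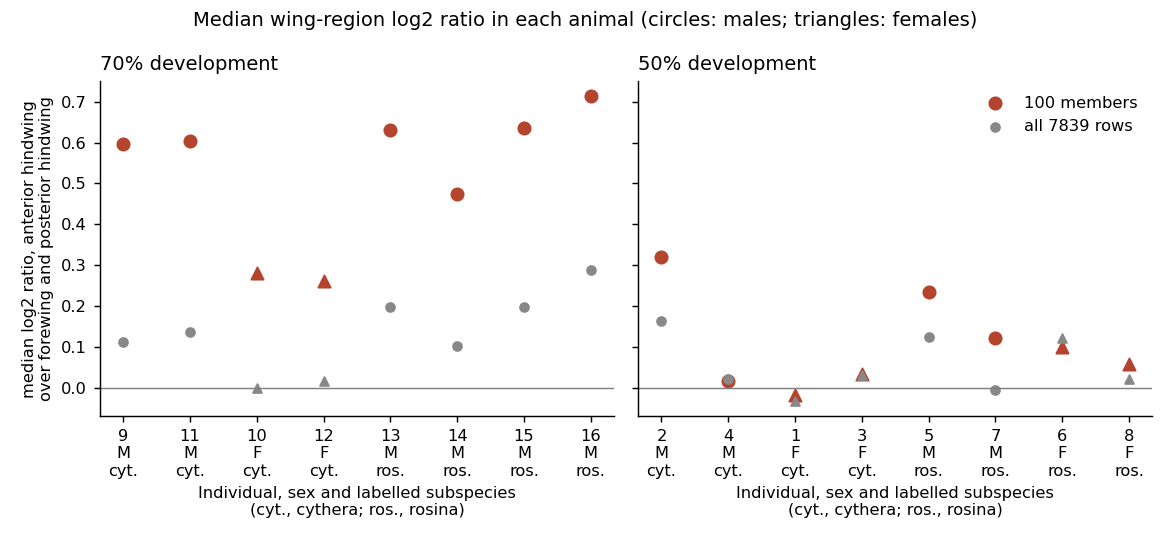
Median log2 ratio of anterior hindwing over forewing and posterior hindwing CPM (vertical axis) in each animal (horizontal axis, with sex and labelled subspecies), over the 100 members (red) and over all 7839 rows (grey), at 70% (left) and 50% development (right). Circles are males and triangles females. At 70% the females 10 and 12 have member medians of 0.28 and 0.26, below the 0.48 to 0.71 of the 6 males, and at 50% the sexes overlap.

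Gene by gene, the mean ratio at 70% was higher in males than in females in 87 members, against 73.3% of the 7839 rows. The median over members was 0.58 in males and 0.28 in females, against 0.18 and 0.0079 over all rows. In 39 members all 6 male ratios lay above both female ratios, against 20.2% of rows, and in 2 members all lay below, against 2.25% (with TMM 16 members against 7.25% and 4 members against 8.39%). The members were ranked on the mean of these same ratios, 6 of 8 of them from males, so these counts and medians are not independent of the rule, and nothing is read from their excess over all rows. MSTRG.2889 had log2 ratios of 1.65, 1.305, 1.48, 0.87, 0.92 and 1.09 in males 9, 11, 13, 14, 15 and 16, against 0.05 and 0.11 in females 10 and 12. MSTRG.14166 had 1.20, 1.97, 1.55, 0.74, 1.01 and 1.33 in the same males, against 0.15 and 0.23 in the females. The leading member MSTRG.20942 did not share this, with a mean of 1.61 in males and 1.79 in females. The 2 members with lower ratios in every male were MSTRG.5329 (HMEL008925g1), with means of 0.36 in males and 0.73 in females, and MSTRG.6865 (HMEL014268g1), with 0.31 and 0.82.

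The level in the anterior hindwing at 70%, on which the rule set its limit of 2, was higher in males for most members, as it was for most rows. The ratio of male to female mean CPM was 0.41 to 1.94 with a median of 1.25, and it was above 1 in 77 members, against 68.5% of the 7839 rows, and at least 1.5 in 19, against 14.6%. Within cythera it was 0.21 to 2.52 with a median of 1.20 and above 1 in 71 members, against 59.4% of rows. Both cythera males were above both cythera females in 35 members, against 27.0% of rows, and below them in 7, against 13.8%. The limit left out 35 rows that met the other criteria. It capped the members but not all rows, and the ranking used mostly male ratios. Nothing is therefore read from these differences in share.

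At 50%, where each subspecies had 2 males and 2 females, the sexes were compared in each region with subspecies as a term, in edgeR's quasi-likelihood test with Benjamini-Hochberg adjustment over all rows tested. In the anterior hindwing 1 of 93 members tested was called at an FDR under 0.05, against 0.242% of the 13250 rows. An unadjusted p under 0.05 was found for 9 members, against 8.30% of rows, and DESeq2 called 5, against 2.77%. The 1 called by edgeR was MSTRG.14005 (HMEL012616g1, HMEL012617g2, HMEL031520g1), which fell in males by 1.28 ± 0.17 on the log2 scale (SE, FDR = 0.0430). It had 8.94, 6.11, 14.5 and 13.1 CPM in males 2, 4, 5 and 7, against 19.4, 21.6, 23.1 and 29.7 CPM in females 1, 3, 6 and 8, without overlap. The call was lost without any 1 of the 8 animals (FDR 0.0564 to 0.197), with no filter on low counts and without the subspecies term. Its forewing and posterior hindwing had 8.30, 7.57, 16.9 and 17.5 CPM in the males, against 17.5, 13.4, 14.6 and 21.6 CPM in the females, with overlap (FDR = 0.623).

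Between the sexes, 0 of 94 members were called in the forewing and posterior hindwing at 50%, against 0.102% of 12779 rows, 11 having an unadjusted p under 0.05 (7.57% of rows) and DESeq2 calling 1 (2.16% of rows). The member with the smallest p was MSTRG.1008. It had 152, 936, 55.2 and 319 CPM in males 2, 4, 5 and 7, against 51.6, 51.2, 40.6 and 36.0 CPM in females 1, 3, 6 and 8. Every male was above every female, by a log2 difference of 2.79 ± 0.74 (SE, FDR = 0.492 in edgeR and 0.0028 in DESeq2). The anterior hindwing showed the same order, with 100.8, 829, 107 and 174 CPM in the males and 46.3, 44.2, 54.9 and 52.1 CPM in the females (log2 difference 2.35 ± 0.77, FDR = 0.513). The log2 difference was smaller there, but the nearest male and female lay further apart, at 100.8 and 54.9 CPM. In the forewing and posterior hindwing they were at 55.2 and 51.6 CPM. Individual 4, which stood apart from the other libraries, had the highest value in both regions.

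Subspecies were compared within each region and stage, 4 cythera against 4 animals labelled rosina. At 70% the limit on the ratio of males to females bears on this comparison, since it capped genes that were higher in the all-male rosina group. In the anterior hindwing at 70%, 0 of 100 members were called, against 0% of 12296 rows, with 12 members at an unadjusted p under 0.05 (6 higher and 6 lower in cythera), against 7.99% of rows, and 2 called by DESeq2, against 1.46%. At the same stage 0 of 100 were called in the forewing and posterior hindwing, against 0% of 12138 rows, with 7 at p under 0.05, against 7.28% of rows, and 1 called by DESeq2, against 1.25%. Without individual 13, edgeR called 1 member and 50 rows in the anterior hindwing at 70%. It then called 1 member and 31 rows in the forewing and posterior hindwing. At 50%, 0 of 93 members were called in the anterior hindwing, against 1.40% of 13250 rows, with 8 at p under 0.05, against 13.9% of rows, and 7 called by DESeq2, against 7.02%. Without individual 4, 5 members and 354 rows were called there by edgeR. The forewing and posterior hindwing at 50% had 0 of 94 called, against 1.64% of 12779 rows, with 9 at p under 0.05, against 12.8% of rows, and 4 called by DESeq2, against 6.09%. Without individual 4, 2 members and 317 rows were called there by edgeR. The median log2 difference over members lay between -0.033 and 0.060 in the 4 comparisons, against -0.028 to 0.017 over all rows tested.

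MSTRG.5329 had the smallest p among the members in the anterior hindwing at both stages and in the forewing and posterior hindwing at 70%. At 70% it had 34.6, 48.3, 30.0 and 38.1 CPM in the anterior hindwings of cythera individuals 9 to 12, against 16.9, 6.13, 10.6 and 9.40 CPM in individuals 13 to 16, labelled rosina. The groups did not overlap, and the highest of those labelled rosina was individual 13. The log2 difference was 1.92 ± 0.30 (SE, FDR = 0.161 in edgeR), and without individual 13 the edgeR FDR was 0.0316. DESeq2 called the member with all animals kept (FDR = 2.1e-06), so the call turned on the method. The cythera males 9 and 11 alone also lay above all 4 males labelled rosina. In the forewing and posterior hindwing at 70% MSTRG.5329 had 25.6, 30.7, 27.1 and 21.0 CPM in cythera, against 15.0, 4.35, 7.43 and 5.99 CPM in animals labelled rosina (log2 difference 1.64 ± 0.36, FDR = 0.340 in edgeR, and 0.0398 without individual 13). The DESeq2 FDR there was 0.0027 with all animals.

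At 50% the level of MSTRG.5329 was lower in both subspecies and the order was the same. It had 2.53, 3.93, 2.11 and 1.71 CPM in the anterior hindwings of cythera individuals 1 to 4, against 0.488, 0.259, 0.119 and 0.615 CPM in rosina individuals 5 to 8. The log2 difference was 2.86 ± 0.55 (SE, FDR = 0.0503 in edgeR, just outside the threshold). The FDR was 0.0492 without individual 4, 0.0191 with the newer quasi-likelihood form of edgeR and 4.6e-06 in DESeq2. The forewing and posterior hindwing had 2.63, 3.51, 2.87 and 1.97 CPM in cythera, against 0.744, 0.634, 0.119 and 0.221 CPM in rosina (log2 difference 2.70 ± 0.62, FDR = 0.0918 in edgeR). Cythera lay above rosina without overlap in all 4 comparisons of this gene.

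MSTRG.15748 (HMEL002072g1) had the smallest p in the forewing and posterior hindwing at 50%. It had 75.4, 32.9, 33.5 and 6.74 CPM in cythera individuals 1 to 4, against 5.60, 6.85, 7.35 and 5.93 CPM in rosina individuals 5 to 8 (log2 difference 2.60 ± 0.59, SE, FDR = 0.0880 in edgeR). Individual 4 lay within the rosina range, and without it the edgeR FDR was 0.00892. DESeq2 called the member with all animals kept (FDR = 0.00026). The anterior hindwing at 50% gave 92.0, 45.9, 28.3 and 7.61 CPM in cythera and 5.44, 6.66, 5.23 and 4.70 CPM in rosina. At 70% the subspecies had similar levels, 6.08 ± 1.12 CPM in cythera and 7.09 ± 0.26 CPM in animals labelled rosina in the anterior hindwing (SD, n = 4 each), with a log2 difference of -0.13 ± 0.18 (SE, FDR = 0.875 in edgeR).

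**Figure D5:**
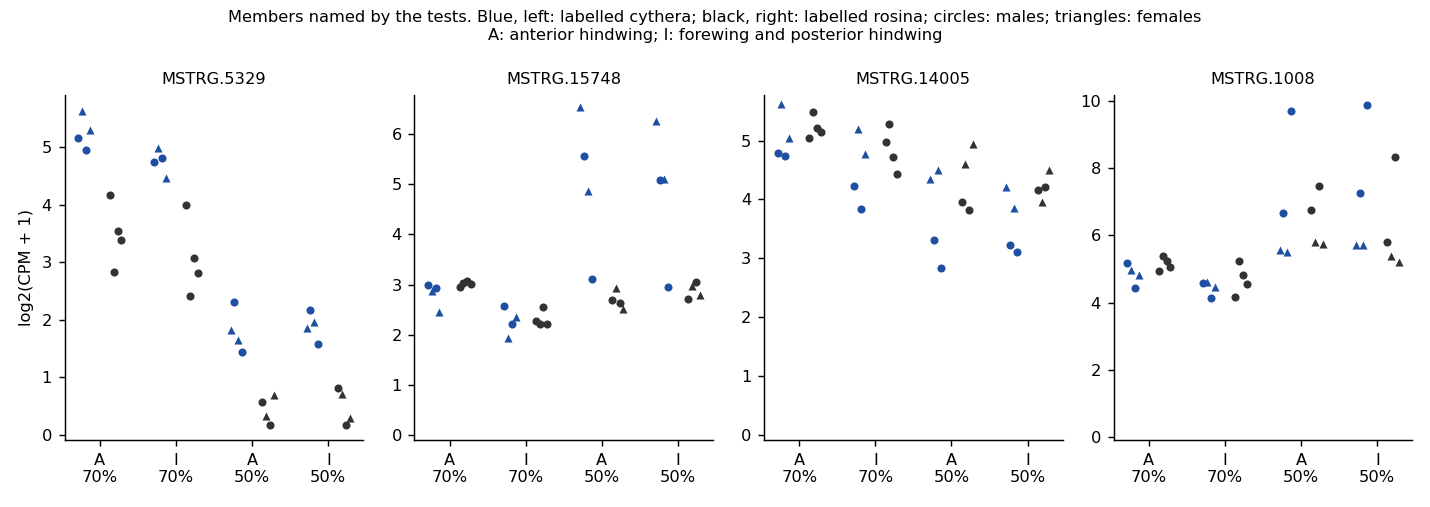
Log2(CPM + 1) (vertical axes) of 4 members named by the tests, in the anterior hindwing (A) and the forewing and posterior hindwing (I) at 70% and 50% development. Each point is 1 animal (circles, males; triangles, females), with cythera in blue on the left of each pair and animals labelled rosina in black on the right. MSTRG.5329 is higher in cythera in all 4 pairs, MSTRG.15748 at 50% except in 1 cythera animal of the forewing and posterior hindwing, and at 50% the females of MSTRG.14005 lie above the males in A while the males of MSTRG.1008 lie above the females.

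Whether the regional difference at 70% itself differed between subspecies was tested as an interaction of region and subspecies, with individual as a block. None of the 100 members was called, against 0% of 14692 rows, with 7 members at an unadjusted p under 0.05, against 4.11% of rows, and 0 called by DESeq2, against 0.0885%. The mean ratio was higher in cythera in 27 members, against 23.5% of the 7839 rows. In 7 members the ratios of all cythera animals lay below those of all animals labelled rosina, against 4.67% of rows, and in 0 above them, against 0.319%, but both females were cythera and no female was labelled rosina. The smallest p belonged to MSTRG.19797 (HMEL033923g1), with 11.5, 8.88, 9.71 and 7.27 CPM in the anterior hindwings of cythera individuals 9 to 12, against 12.2, 14.1, 17.4 and 23.8 CPM in individuals 13 to 16. Its forewing and posterior hindwing had 10.1, 8.58, 6.97 and 7.01 CPM in cythera, against 5.18, 8.09, 10.3 and 11.0 CPM in those labelled rosina. The interaction was -0.63 ± 0.16 on the log2 scale (SE, unadjusted p = 0.00199, FDR = 1.00 in edgeR).

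Some members carried nearby locus numbers. Within a distance of 10 MSTRG numbers, 14 members had another member as neighbour, in 7 pairs, against 7.78% of the other rows that had a member within that distance. Numbers follow the assembly's order, and positions on the genome were not used here. MSTRG.8558 (HMEL016499g1) and MSTRG.8564 had mean log2 ratios of 0.72 and 0.77 at 70% and 0.43 and 0.22 at 50%, and both were higher at 70% in level, with 48.4 and 22.2 CPM in the anterior hindwing, against 6.28 and 2.97 CPM at 50%. MSTRG.15744 and MSTRG.15748 had mean anterior hindwing levels of 6.52 and 6.58 CPM at 70%, against 19.3 and 24.5 CPM at 50%, but in both the stages overlapped. The high values of MSTRG.15748 at 50% came from cythera animals and not from rosina, as given above. MSTRG.15052 (HMEL008095g1) and MSTRG.15056 had near equal levels at 70%, 219.5 and 232 CPM, but 1.902 and 119 CPM at 50%. In this pair only MSTRG.15052 was higher at 70% without overlap. The same held for MSTRG.6461 beside MSTRG.6468, MSTRG.10209 beside MSTRG.10215 and MSTRG.14446 beside MSTRG.14442. In MSTRG.19134 and MSTRG.19142 the stages overlapped. Reads of neighbouring or overlapping loci can be shared between them, since the counting step and its strand setting are not given in the sources used here.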

How the data were processed

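RNA was measured in 32 libraries of 16 H. melpomene individuals. The authors trimmed the reads and aligned them to the reference genome, and they deposited whole-number counts per row, not scaled for library size. The submitters' processing notes name Trimmomatic 0.38, HISAT2 2.1.0, SAMtools 1.9, StringTie 1.3.5 and edgeR. The counting step, its strand setting and the genome build are not given in the sources used here. 0 columns were left unused, and 0 of the row IDs matched the RefSeq table of assembly ASM5695672v1 (15508 genes).

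CPM was computed from column totals. Members and tests were chosen with earlier results of these data known. Named are the 12 members with the highest ratio at 70%, the 6 with the highest anterior hindwing CPM, the 4 highest and 4 lowest ratios at 50%, the 4 largest stage differences each way, those called or with the smallest p in each test, and the ranks at the limit.

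Tests used edgeR 4.0.16 and limma 3.58.1 in R 4.3.3, with filterByExpr, TMM and the earlier form of the quasi-likelihood F-test. P-values were adjusted by Benjamini-Hochberg over all rows tested (FDR, called under 0.05), and SE was derived from the F statistic. DESeq2 1.42.0, RLE size factors, other filters, the newer quasi-likelihood form, sex or subspecies terms, no block and each individual left out were the alternatives. Scripts were tested on simulated data. Figures were drawn with matplotlib 3.10.9.

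Both libraries of 1 number came from 1 animal by the labels. Their deviations from the group means correlated across genes by 0.708 to 0.933 (median 0.803, 16 pairs), and the block was used for the interaction. No libraries of a group agreed within sampling noise (lowest chi-square per degree of freedom 84.6). The study removed 1 rosina individual as mislabelled but its text does not give the number, so all labelled individuals were kept. A count of 0 allows up to 3 counts, 0.0658 to 0.149 CPM, for counting error only.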

Additional observations from a re-analysis of the deposited data

Results flagged for a closer look

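Of 66 groups of 8 animals compared, each 1 named gene at 1 stage, 7 held an animal whose log2 ratio of anterior hindwing over forewing and posterior hindwing lay far from the others. Chance flags about 1 in 20 groups, here 3.3. At 70%, MSTRG.7536 had 0.48 in female 12, against 0.76 to 0.98 in the other animals. MSTRG.3196 had 1.32 in individual 14 at 70% (11.2 CPM in the anterior hindwing and 3.92 CPM in the rest of the wing), against 0.048 to 0.54. MSTRG.3962 had 1.24 in individual 11 at 70% (5.05 CPM in the anterior hindwing and 1.57 CPM in the rest), against 0.21 to 0.67.

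At 50%, MSTRG.6348 had 1.12 in individual 4 (1057 CPM in the anterior hindwing and 486 CPM in the rest of the wing), against -0.49 to 0.18. This individual also stood apart from its group over all rows. MSTRG.20942 had -0.11 in individual 6 at 50% (0 counts in the anterior hindwing and 3 in the rest), where all others were at 0. These 3 counts are within what a count of 0 allows. MSTRG.14166 had -1.64 in individual 2 at 50% (0 counts in the anterior hindwing and 86 in the rest), against -0.76 to 0. MSTRG.5642 had 2.00 in individual 6 at 50% (116 counts in the anterior hindwing and 0 in the rest), against 0 to 0.77. What made these animals differ was not tested.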

How the results depend on the processing

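Under DESeq2 the members called between subspecies at 70% were 2 (anterior hindwing) and 1 (forewing and posterior hindwing), and at 50% 7 and 4. DESeq2 called 5 and 1 members between the sexes at 50% in the same regions. Over all rows DESeq2 called 180, 152, 930 and 778 between subspecies in the same order, and 367 and 276 between the sexes. The newer quasi-likelihood form called 4 and 1 members between subspecies at 50%, and 390 and 316 of all rows. The 1 member called between the sexes in the anterior hindwing was 0 with no filter, 0 with at least 10 counts in every library and 0 without the subspecies term. The cause was not tested. MSTRG.5329 has no value in the anterior hindwing at 50% with at least 10 counts in every library, which removes it. With individuals left out in turn, 0 to 1 members were called between subspecies in each region at 70%. The 1 came without individual 13, when 50 rows were called in the anterior hindwing and 31 in the other region. For the anterior hindwing at 50% the members called were 0 to 5. These were 5 without individual 4 (354 rows), 1 without 3 (140 rows) and 1 without 6 (244 rows). For the forewing and posterior hindwing at 50% they were 0 to 2 (2 without individual 4, with 317 rows). Between the sexes in the anterior hindwing they were 0 to 0, with 5 to 42 rows called. For the interaction of region and subspecies, 0 members were called with the individual as a block and 0 with no block.

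The list itself changed with the animals. Of its 100 members, 58 to 85 were chosen again when 1 animal at 70% was left out, the lowest without female 12, and 72 to 97 under other pseudocounts, scalings, CPM limits and with no limit on the ratio of the sexes. The split of all rows turned with the scaling, 721 higher and 115 lower in the anterior hindwing in all 8 animals at 70% with library totals and 233 and 266 with TMM, and the median ratio of all rows at 50% was 0.060 with totals and -0.0079 with TMM. The members' median ratio was above 0 with both. Depth limits MSTRG.20942, MSTRG.13736, MSTRG.13679, MSTRG.24492 and MSTRG.2889 at 50%, and 2 females limit what can be said of sex at 70%.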
